A study of Homo sapiens with 10 samples.

Results

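The comparison set 12Z cells that received 1 µM CDD-3013 before IL1β against 12Z cells that received IL1β without an inhibitor, over all measured genes. It used 4 of the 10 libraries of the study, 2 from each group. 12Z is an established line of epithelial cells from peritoneal endometriosis, the growth of endometrium-like tissue on the lining of the abdomen. All cells were starved overnight in medium with 2% charcoal-stripped serum. The CDD-3013 group was then pre-treated for 30 min with 1 µM CDD-3013 and exposed to 10 ng/ml IL1β for 6 h. The CDD-2728 group, used here at 1 µM for a comparison of the compounds, was treated in the same way with 1 µM CDD-2728. The IL1β group was pre-treated with the solvent DMSO and exposed to the same IL1β, and the vehicle group received DMSO and no IL1β. The submitters describe both compounds as inhibitors of JNK, and both are known here only by their code names. No cells received an inhibitor without IL1β, so every value of CDD-3013 is a value in IL1β-stimulated cells. The labels do not say that the libraries of a group came from separate cultures, so each p-value reflects a sample-to-sample spread that may be technical only.

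JNK, the c-Jun N-terminal kinase, is a stress-activated member of the MAP kinases that cytokines such as IL1β switch on within minutes of binding their receptor. It phosphorylates the transcription factor JUN, which pairs with FOS and ATF proteins to form AP-1 and drives its own gene in a positive loop. IL1β acts in parallel through NF-κB and through the MAP kinases p38 and ERK. In endometriosis IL1β is a cytokine of the peritoneal fluid that induces chemokines, prostaglandin synthesis and matrix remodelling in lesion cells.

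The 10 libraries held 16312600 to 19479416 counts, with 17971191 and 17248542 in the CDD-3013 libraries and 18166317 and 16312600 in the IL1β libraries. Levels are CPM, the counts of a gene scaled to the size of its library after TMM normalization, and differences are log2 fold changes ± SE of CDD-3013 over IL1β alone. A gene is called when the adjusted p of edgeR's quasi-likelihood test is under 0.05. Markers were checked against the label of epithelial cells. The epithelial keratin KRT8 had 8540 and 9479 CPM in CDD-3013 cells and 6090 and 6110 CPM in IL1β cells, while the epithelial genes EPCAM, CLDN4, CLDN3 and ESRP1 had means under 1 CPM in every group. Stromal markers were present at summed levels of 7555 to 8043 CPM with CDD-3013 and 7121 to 7377 CPM with IL1β alone. Immune markers summed to 24.0 to 28.0 and 20.5 to 22.9 CPM, and 8 of 10 had means under 1 CPM.

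Transcript length and GC content moved with the groups and were therefore carried through every count. In the libraries with CDD-3013, long and AT-rich transcripts were lower and short and GC-rich transcripts higher than with IL1β alone. The decile of genes with the longest transcripts (7353 bases and above, 1532 genes) had a median log2 fold change of -0.34, and the second decile from the short end (1161 to 1830 bases) had 0.31. The shortest decile (up to 1160 bases) had 0.2. Relative to the mean of the IL1β libraries, the longest decile lay at -0.3 and -0.35 in the CDD-3013 libraries, at -0.16 and -0.03 in the libraries with 1 µM CDD-2728, and at 0.02 and -0.02 in the IL1β libraries themselves. The decile with the lowest GC content had a median log2 fold change of -0.26 and the highest decile 0.21. The lower calls of the plain fit had a median transcript length of 5824 bases, the higher calls 2301 bases, and all tested genes 3352 bases. A second fit therefore took each library's smooth trends over length and GC content as offsets, called the corrected fit from here on. In it the longest decile had a median of -0.02, and the medians of the lower and higher calls were 4054 and 3515 bases. The source of these trends was not tested. Rose and fell are used below for genes called in both fits in the same direction.

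**Figure D1:**
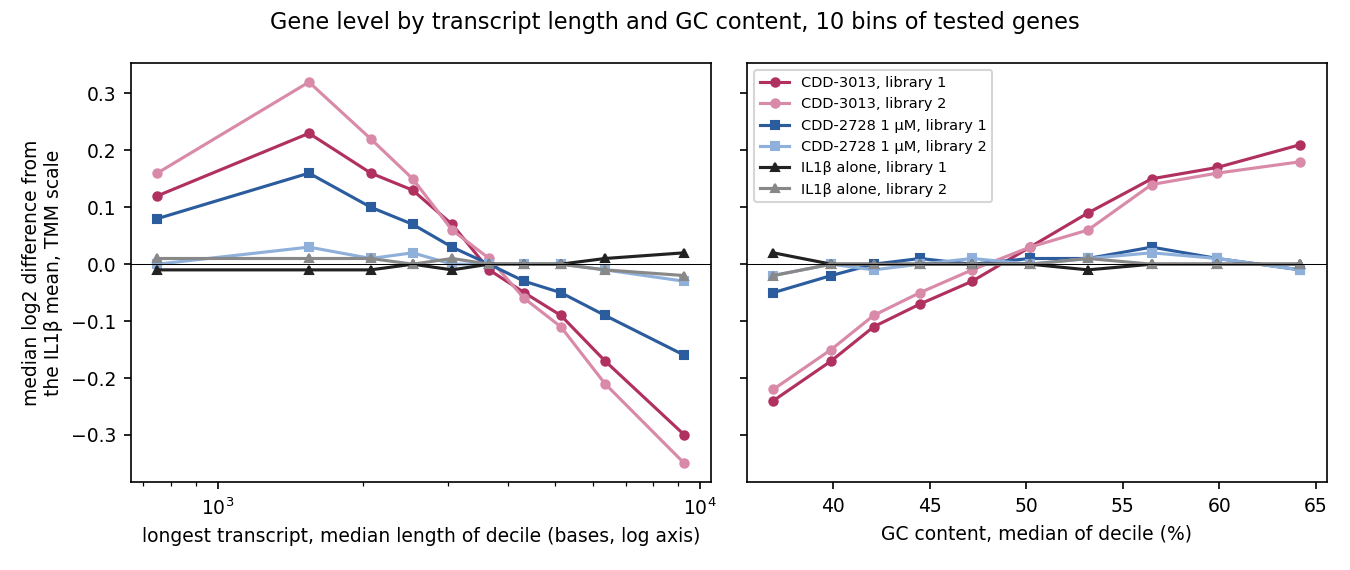
Median log2 difference of each library from the mean of the IL1β libraries (y axis, TMM scale) in 10 bins of tested genes, by the median length of the longest transcript in bases (left, log axis) and by GC content in percent (right). Both CDD-3013 libraries climb from 0.12 and 0.16 in the shortest bin to 0.23 and 0.32 in the second. From there they fall with length, to -0.3 and -0.35 in the longest bin. They climb with GC content, while the IL1β libraries stay near 0.

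Of 15740 genes tested, the plain fit called 5723 (36.4%), of which 2994 (19.0%) were higher and 2729 (17.3%) lower with CDD-3013. The corrected fit called 4197 (26.7%), 2497 higher (15.9%) and 1700 lower (10.8%). Called in the same direction by both were 1796 higher genes (11.4%) and 1359 lower genes (8.63%). Among these the change was at least 2-fold in both fits for 93 higher (0.591%) and 213 lower genes (1.35%). Most changes were therefore small. Of the calls, 52.3% were higher in the plain fit, 59.5% in the corrected fit and 39.2% when libraries were scaled by their totals alone, a scaling that moved the median log2 fold change of all genes from -0.007 to -0.089. Without the first IL1β library the plain fit called 2077 higher and 1603 lower genes, and without the second CDD-3013 library 2216 and 1775.

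**Figure D2:**
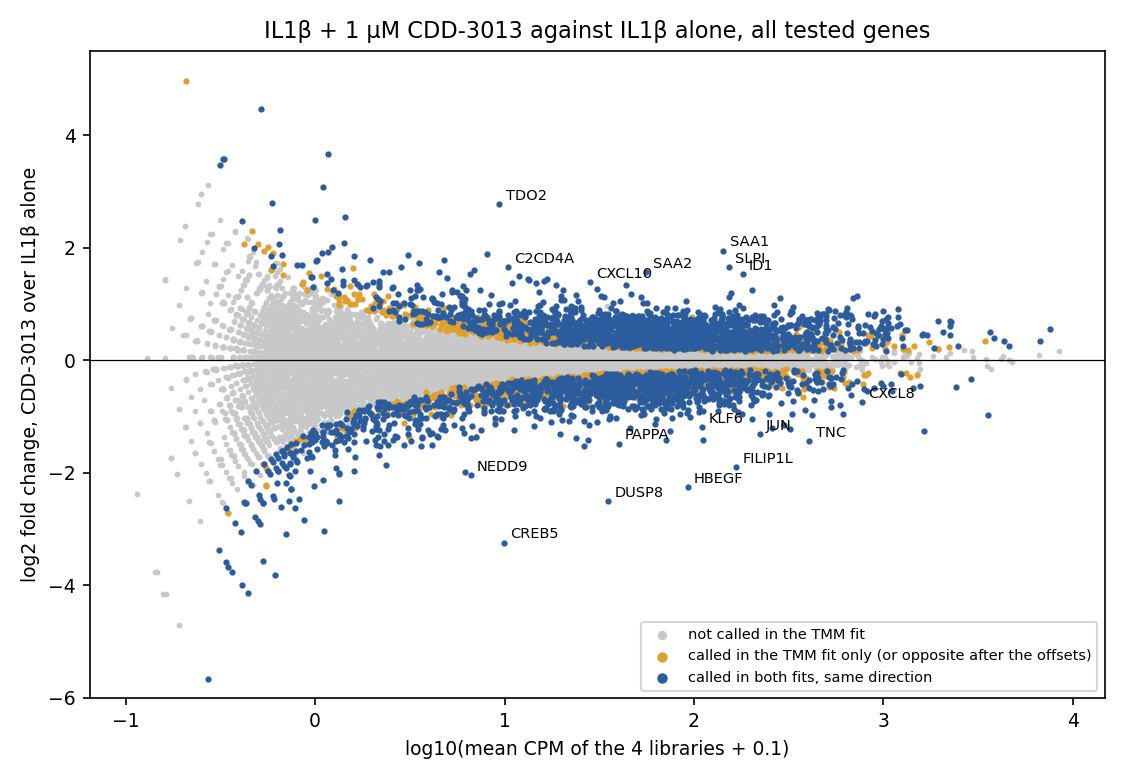
Log2 fold change of CDD-3013 over IL1β alone in the plain (TMM) fit (y axis) against log10 of the mean CPM of the 4 libraries plus 0.1 (x axis) for 15740 tested genes. Blue points were called in both fits (1796 higher, 1359 lower), orange points in the plain fit only or with opposite signs, grey points not in the plain fit; HBEGF, DUSP8 and FILIP1L stand below and SAA1, SLPI and ID1 above genes of like level.

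JUN, the AP-1 protein phosphorylated by JNK, fell to 127 and 129 CPM with CDD-3013, against 308 and 325 CPM with IL1β alone (chr1:58780788-58784327, minus strand, GRCh38). Vehicle cells had 133 and 146 CPM, so that the CDD-3013 libraries lay below both of them. The log2 fold change was -1.31 ± 0.07 (adjusted p = 2.23e-11) in the plain and -1.41 ± 0.06 in the corrected fit. The difference of CDD-3013 from vehicle, -0.12, was not called (adjusted p = 0.169). The JNK genes themselves were not called in both fits. MAPK8, which encodes JNK1, had 27.2 and 25.8 CPM with CDD-3013 and 32.1 and 35.7 CPM with IL1β alone, a log2 fold change of -0.35 (adjusted p = 0.0058) in the plain fit and of -0.05 (adjusted p = 0.741) in the corrected fit. The plain call was lost without the second IL1β library (adjusted p = 0.102) and without the second CDD-3013 library (0.0673). MAPK9, the gene of JNK2, had -0.24 (adjusted p = 0.0243) and -0.09 (0.391), and the plain call was lost without either IL1β library (adjusted p = 0.104 and 0.132) or the first CDD-3013 library (0.242). MAPK10, the gene of JNK3, was at 0.565 to 1.34 CPM in the 4 libraries. An inhibitor of kinase activity need not change the kinase's mRNA, so these values do not check the labels. Of 25 genes of the JNK pathway, its upstream kinases and scaffolds, 3 rose and 4 fell, beside 11.4% and 8.63% of all tested genes. The plain fit called 4 higher and 11 lower, with a median log2 fold change of -0.19, and the corrected median was -0.02, beside -0.007 and 0.011 for all tested genes. The 11 lower calls became 7 without the second IL1β library or the second CDD-3013 library, and the 4 higher calls became 1 without the first IL1β library and 2 without any other of the 4 libraries. GADD45A, a stress protein that binds the kinase MAP3K4 upstream of JNK and p38, fell the most among them, to 48.1 and 66.7 CPM with CDD-3013, against 109 and 114 CPM (log2 fold change -0.96 ± 0.13).

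Among 17 tested genes of the AP-1 family, JUN, CREB5, ATF3, JUND and MAFK fell and JUNB, FOS and BATF3 rose. Thus 5 fell and 3 rose, beside 8.63% and 11.4% of all tested genes, and the median was -0.05 in both fits. CREB5, a CRE-binding factor that pairs with JUN, had 1.96 and 1.77 CPM with CDD-3013 and 16.7 and 18.8 CPM with IL1β alone (chr7:28299321-28825894, plus strand). That is 9.46-fold lower, a log2 fold change of -3.24 ± 0.23 (adjusted p = 1.78e-09; corrected -2.87), and it lies below the 2.95 and 3.58 CPM of vehicle cells. ATF3, a stress-induced partner and repressor, had 15.5 and 18.3 CPM with CDD-3013 and 25.8 and 25.7 CPM with IL1β alone (-0.61 ± 0.12; vehicle 9.42 and 10.3 CPM). JUND, the more constant JUN protein, had 261 and 273 CPM against 377 and 355 CPM (-0.46 ± 0.07). JUNB, which can counter JUN on AP-1 sites, rose instead, to 169 and 185 CPM with CDD-3013, against 97.5 and 109 CPM with IL1β alone and 31.2 and 29.2 CPM in vehicle cells (0.78 ± 0.10; corrected 0.46). FOS, the immediate-early partner of JUN, was low throughout, with 4.22 and 4.17 CPM against 2.52 and 1.70 CPM (0.98 ± 0.24), and its call was lost without the second IL1β library (adjusted p = 0.0601). MAFK lost its call without the first IL1β library (0.0529), and BATF3 without either IL1β library (0.0741 and 0.0513) or the second CDD-3013 library (0.0703). Of the 5 higher calls of the plain fit in this family, 1 was left without the second IL1β library and 2 without the first or without the second CDD-3013 library. FOSL1, a FOS relative of epithelial cells, was called in the corrected fit only (-0.31 and -0.65).

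Promoters of genes that fell are shown because JUN and ATF proteins bind 8-base elements of the type TGACATCA and TGACGTCA, the first of which is the known AP-1 element of the JUN promoter. Each is the RefSeq sequence (GRCh38.p14) from 250 bases before to 50 bases after the start, in gene direction, with searched motifs in capitals. The windows are chr1:58783998-58784297 (minus strand) for JUN, chr1:212565157-212565456 (plus) for ATF3, chr10:3785160-3785459 (minus) for KLF6, chr11:1572222-1572521 (minus) for DUSP8 and chr4:73740319-73740618 (plus) for CXCL8. CXCL8 holds TGACTCA, a match of the AP-1 motif TGANTCA, and GGAATTTCC, a match of the NF-κB type motif GGANTTTCC.
JUN: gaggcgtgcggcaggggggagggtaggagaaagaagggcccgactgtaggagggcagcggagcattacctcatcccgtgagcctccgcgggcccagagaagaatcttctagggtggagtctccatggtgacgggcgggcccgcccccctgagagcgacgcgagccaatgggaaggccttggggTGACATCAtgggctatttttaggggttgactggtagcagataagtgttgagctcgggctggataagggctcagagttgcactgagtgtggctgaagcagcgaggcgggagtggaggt
ATF3: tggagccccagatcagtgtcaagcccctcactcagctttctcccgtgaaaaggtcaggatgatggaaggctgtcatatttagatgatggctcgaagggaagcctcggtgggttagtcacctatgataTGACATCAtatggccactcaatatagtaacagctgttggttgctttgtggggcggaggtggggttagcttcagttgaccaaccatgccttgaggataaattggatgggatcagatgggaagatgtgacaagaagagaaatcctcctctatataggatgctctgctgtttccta
KLF6: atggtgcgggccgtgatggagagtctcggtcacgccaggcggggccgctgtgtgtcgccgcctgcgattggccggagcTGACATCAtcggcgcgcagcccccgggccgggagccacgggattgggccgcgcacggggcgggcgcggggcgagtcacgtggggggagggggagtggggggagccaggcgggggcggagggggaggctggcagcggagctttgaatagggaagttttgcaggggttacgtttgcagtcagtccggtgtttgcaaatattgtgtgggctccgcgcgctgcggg
DUSP8: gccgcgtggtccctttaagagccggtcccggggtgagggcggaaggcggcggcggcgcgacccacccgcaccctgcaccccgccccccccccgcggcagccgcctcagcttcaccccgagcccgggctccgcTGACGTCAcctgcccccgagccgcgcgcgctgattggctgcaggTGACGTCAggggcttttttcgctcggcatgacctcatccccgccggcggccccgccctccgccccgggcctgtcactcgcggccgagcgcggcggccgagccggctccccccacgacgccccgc
CXCL8: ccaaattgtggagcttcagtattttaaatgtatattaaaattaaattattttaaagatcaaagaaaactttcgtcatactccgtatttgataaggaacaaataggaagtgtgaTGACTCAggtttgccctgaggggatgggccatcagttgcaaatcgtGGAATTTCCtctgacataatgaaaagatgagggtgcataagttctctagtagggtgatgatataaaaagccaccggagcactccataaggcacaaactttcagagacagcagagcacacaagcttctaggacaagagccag
TGACATCA begins 67 bases before the start in JUN, 123 in ATF3 and 172 in KLF6, and DUSP8 holds TGACGTCA at 118 and at 74 bases before the start. Read on both strands, TGACATCA was in 1.41% of the 11220 promoters of tested genes, in 2.52% of 953 promoters of genes that fell and in 0.629% of 1430 promoters of genes that rose. Among genes changed at least 2-fold in both fits it was in 5.06% of 79 promoters of lower and 3.85% of 52 promoters of higher genes, TGACGTCA in 6.33% and 3.85%, and TGANTCA in 8.86% and 11.5%, so that TGANTCA had the larger share among higher genes. TGACGTCA was in 3.78% of the promoters of genes that fell, 3.15% of those that rose and 3.31% of all. TGANTCA was in 5.25%, 5.10% and 4.79%, and GGANTTTCC in 1.89%, 1.96% and 1.66%. The windows of CREB5, HBEGF and FILIP1L, described next, held none of the motifs. Only 1 RefSeq start per gene was searched. The windows of CREB5 (chr7:28412268-28412567) and FILIP1L (chr3:99876124-99876423) lie inside the gene spans given here, and that of DUSP8 lies outside its span. Other starts of these genes were not searched. A match describes the letters of a window and is no measurement of binding.

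The strongest falls by adjusted p were those of HBEGF and FILIP1L. HBEGF encodes a membrane-bound ligand of the EGF receptor and had 31.6 and 32.7 CPM with CDD-3013, against 150 and 155 CPM with IL1β alone (chr5:140332843-140346631, minus strand). Vehicle cells had 48.2 and 54.6 CPM, and the CDD-3013 libraries lay below them. The log2 fold change was -2.25 ± 0.08 (adjusted p = 7.19e-15; corrected -2.39), and the difference from vehicle was -0.68 (adjusted p = 6.27e-07). FILIP1L, an inhibitor of cell migration related to filamin-interacting proteins, had 71.5 and 69.6 CPM against 254 and 273 CPM (chr3:99830141-100114513, minus strand; -1.90 ± 0.07, adjusted p = 7.19e-15; corrected -1.79). Its level in vehicle cells was 74.4 and 73.5 CPM, and the difference from vehicle, -0.07, was not called (adjusted p = 0.442). Of 6 tested EGF receptor ligands and receptors HBEGF and the receptor EGFR itself fell and 0 rose, beside 8.63% and 11.4% of all tested genes. EGFR had 318 and 338 CPM against 548 and 524 CPM (-0.71 ± 0.08; corrected -0.40).

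Of 14 tested MAPK phosphatases, which switch MAP kinases off by removing their phosphates, 5 fell and 2 rose. Their medians were -0.29 and -0.47 in the plain and corrected fits. For this list and the next, 8.63% of all tested genes fell and 11.4% rose. DUSP8, a phosphatase that prefers JNK and p38, fell 5.68-fold, to 10.8 and 10.1 CPM, against 59.4 and 59.7 CPM with IL1β alone (chr11:1554044-1571920, minus strand; -2.51 ± 0.12, adjusted p = 1.73e-12; corrected -2.57). Vehicle cells had 23.4 and 20.9 CPM, above both CDD-3013 libraries. DUSP1, the early nuclear phosphatase, had 91.3 and 121 CPM against 169 and 195 CPM (-0.78 ± 0.11). DUSP16, another JNK phosphatase, had 43.9 and 41.0 CPM against 70.3 and 64.5 CPM (-0.67 ± 0.08), DUSP4 had -0.63 ± 0.09, and DUSP7 had -0.39, a call lost without the second CDD-3013 library (adjusted p = 0.0735). DUSP6, which acts on ERK, rose to 9.69 and 10.4 CPM, against 6.10 and 6.47 CPM (0.67 ± 0.16). Of 18 immediate-early and SRF target genes 5 fell and 0 rose, with medians of 0.15 and -0.03 in the plain and corrected fits. KLF6, a zinc finger factor, had the smallest adjusted p of them, with 61.7 and 72.1 CPM against 156 and 150 CPM and 58.6 and 58.7 CPM in vehicle cells (-1.19 ± 0.08, adjusted p = 5.35e-10). EGR1 had 0.594 and 1.08 CPM against 2.52 and 1.44 CPM (-1.27 ± 0.37), a call that was lost without the first IL1β library (adjusted p = 0.25) or the first CDD-3013 library (0.139). Of the 5 lower calls in this list 3 and 2 were left without these libraries.

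**Figure D3:**
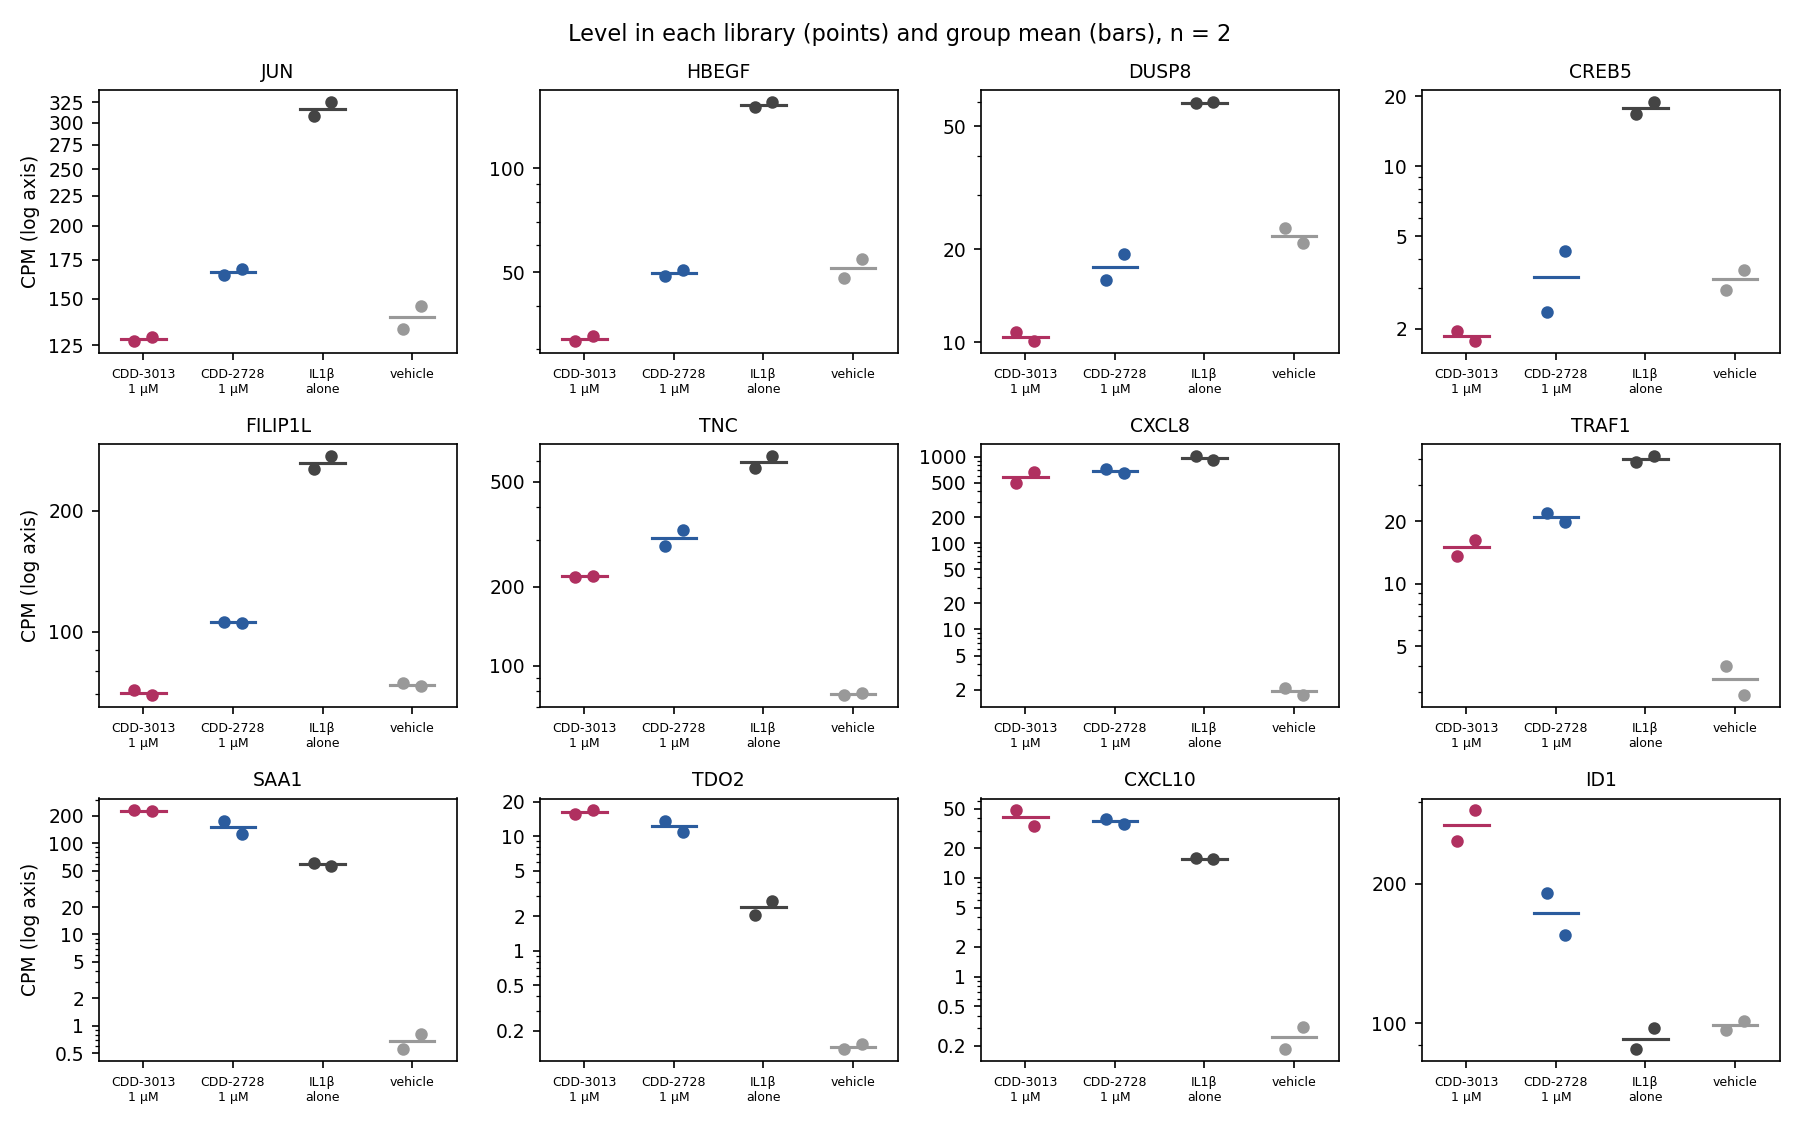
CPM (log axis, its own range in each panel) of 12 genes in each library (points) and as group means (bars, n = 2) for 1 µM CDD-3013, 1 µM CDD-2728, IL1β alone and vehicle. JUN, HBEGF, DUSP8, CREB5 and FILIP1L lie at or below the vehicle level with CDD-3013, TNC, CXCL8 and TRAF1 between vehicle and IL1β, and SAA1, TDO2, CXCL10 and ID1 above IL1β alone.

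Other genes among the 15 largest falls were NEDD9, a scaffold of focal adhesions with 2.32 and 2.78 CPM against 9.85 and 11.2 CPM (-2.04 ± 0.22), and BACH2, a bZIP repressor with 3.03 and 1.83 CPM against 10.3 and 9.17 CPM (-1.99 ± 0.21). ROS1, a receptor tyrosine kinase, had -1.86 ± 0.40, and SPON1, a matrix protein, -1.72 ± 0.42. PDGFB, a growth factor for stromal and mural cells, had 13.2 and 13.7 CPM against 40.2 and 37.0 CPM (-1.52 ± 0.11, adjusted p = 1.29e-09). Vehicle cells had 30.2 and 32.4 CPM of PDGFB, more than both CDD-3013 libraries. PGR, the progesterone receptor, had 0.713 and 1.45 CPM against 3.25 and 2.95 CPM (-1.52 ± 0.33). PAPPA, a protease that frees IGFs from their binding proteins, had 20 and 22.2 CPM against 62.1 and 55.2 CPM (-1.48 ± 0.12, adjusted p = 6.35e-09), still above the 6.92 and 6.65 CPM of vehicle cells. CDK6, a kinase of the G1 phase, had 58.4 and 64.3 CPM against 169 and 155 CPM (-1.41 ± 0.10; corrected -0.96), below the 85.7 and 75.6 CPM of vehicle cells. Of 18 angiogenic and mesenchymal growth factors 4 fell (PDGFB, FGF5, PDGFA and VEGFC) and 4 rose (PGF, GDF15, FGF18 and VEGFA). The shares among all tested genes were 8.63% and 11.4%. The plain call of VEGFA held in 0 of 4 fits that left out a library (adjusted p 0.051 to 0.233), and that of PDGFA was lost without the first IL1β library (0.0533).

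Genes of TGF-β and activin signalling, which in endometriosis accompany adhesion and fibrosis, were represented by 17 tested genes, of which 9 fell and 2 rose, beside 8.63% and 11.4% of all tested genes, with medians of -0.39 and -0.38 in the plain and corrected fits. The ligand TGFB2 had 17.3 and 16.2 CPM against 33.5 and 37.4 CPM, with 14.2 and 15.5 CPM in vehicle cells (-1.08 ± 0.11, adjusted p = 3.29e-07). INHBA, the subunit of activin A, had 14.1 and 15.8 CPM against 30.7 and 28.3 CPM (-0.98 ± 0.12). The receptors TGFBR1 and TGFBR2 and the signal transducer SMAD3 fell by 0.80, 0.55 and 0.39. FST, an extracellular binder of activin, rose to 7.55 and 9.05 CPM, against 3.19 and 4.65 CPM (1.09 ± 0.23). The urokinase receptor PLAUR and the inhibitor SERPINB2 fell by 0.39 and 0.64, and SERPINB3 and SERPINB4 rose by 1.0 and 1.44; these last are near-identical neighbours between which reads may be split, and SERPINB3 lost its call without the first IL1β library (adjusted p = 0.0677). Of 13 genes of plasminogen activation 4 fell and 2 rose.

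Of 27 extracellular matrix genes 8 fell and 3 rose, beside 8.63% and 11.4% of all tested genes. TNC, tenascin C, a matrix glycoprotein of wounds and inflamed stroma, fell to 218 and 220 CPM, against 562 and 623 CPM with IL1β alone and 77.5 and 79.3 CPM in vehicle cells (chr9:115019578-115118257, minus strand; -1.44 ± 0.08, adjusted p = 2.96e-11; corrected -1.28). LOX, which cross-links collagen and elastin, had 416 and 448 CPM against 761 and 733 CPM (-0.79 ± 0.07). The fibrillar collagen COL3A1 and thrombospondin THBS1 rose by 0.50 and 0.58, to 2490 and 2346 CPM and to 477 and 541 CPM, against 1629 and 1793 CPM and 341 and 339 CPM. Among 21 adhesion molecules and integrins 8 fell and 0 rose, with medians of -0.29 and -0.17. They were the integrin subunits ITGA2, ITGB8, ITGAV, ITGA6 and ITGB1, and ALCAM, CD44 and L1CAM. ITGA2, a collagen receptor, had 36.0 and 34.8 CPM against 74.9 and 63.2 CPM (-0.97 ± 0.09; corrected -0.62). Most of these transcripts are long, and the corrected values of ITGA2, ITGB8 and ITGAV were smaller than the plain ones. Of 20 matrix metalloproteinases and inhibitors 2 fell, the inhibitors TIMP3 (-0.82 ± 0.08) and TIMP2 (-0.34), and 3 rose, MMP2, MMP1 and the collagenase MMP13. MMP13 had 5.82 and 5.19 CPM against 2.97 and 2.20 CPM (1.08 ± 0.25). MMP1 had 21.6 and 22.1 CPM against 16.7 and 14.2 CPM, and its call was lost without the second IL1β library (adjusted p = 0.0755).

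The chemokines split. CXCL8, which attracts neutrophils, fell to 491 and 656 CPM, against 1005 and 915 CPM with IL1β alone (chr4:73740506-73743716, plus strand; -0.74 ± 0.12, adjusted p = 0.000301; corrected -0.72). It was the only one of 16 chemokines to fall, while 6 rose, CXCL10, CXCL11, CCL20, CCL5, CCL2 and CXCL12. The list had medians of 0.39 and 0.26. Among all tested genes 8.63% fell and 11.4% rose. Vehicle cells had 2.12 and 1.74 CPM of CXCL8, so that its level with CDD-3013 stayed far above that of vehicle cells. CXCL10, an interferon-type chemokine for T cells, rose to 48.0 and 33.5 CPM, against 15.7 and 15.4 CPM with IL1β alone and 0.185 and 0.307 CPM in vehicle cells (chr4:76021117-76023497, minus strand; 1.39 ± 0.14, adjusted p = 2.92e-07; corrected 1.28). CCL2, which attracts monocytes, had 427 and 488 CPM against 321 and 337 CPM (0.48 ± 0.08). The call of CXCL12 was lost without the first IL1β library (adjusted p = 0.278) or the first CDD-3013 library (0.163). The call of CXCL11 was lost without these (0.0527 and 0.0639) and without the second IL1β library (0.0583).

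IL6, NFKBIA, TNFAIP3 and ICAM1, well-known IL1β-induced genes, were not called in both fits, whereas some other members of their lists were. IL6 had 95.2 and 98.8 CPM with CDD-3013 and 84.5 and 71.5 CPM with IL1β alone, called in the plain fit (0.31 ± 0.08, adjusted p = 0.0047) and not in the corrected fit (0.12, adjusted p = 0.353). The plain call was lost without the second IL1β library (adjusted p = 0.137). Of 17 cytokines and receptors of the IL6 and CSF families 1 rose and 2 fell. NFKBIA, the inhibitor IκBα, had 257 and 295 CPM against 225 and 244 CPM (plain 0.24, corrected -0.07). It was called in the plain fit only, and not without the first IL1β library (adjusted p = 0.187) or the second CDD-3013 library (0.25). TNFAIP3, the feedback protein A20, had 589 and 591 CPM against 638 and 674 CPM (-0.15, adjusted p = 0.103) and was called in neither. ICAM1, an adhesion molecule for leukocytes, had 577 and 615 CPM against 517 and 519 CPM (plain 0.20, corrected 0.07), and was called in the plain fit only, in 1 of the 4 fits that left out a library, the one without the first CDD-3013 library. Of 27 genes of the NF-κB pathway and its feedback 9 rose and 2 fell (11.4% and 8.63% of all tested genes), with medians of 0.23 and 0.02. NFKB2, a subunit of the non-canonical pathway, rose to 537 and 505 CPM, against 369 and 362 CPM (0.51 ± 0.06). BCL3, a nuclear IκB protein, had 0.68 ± 0.08. TRAF1, an adaptor of TNF receptors, fell to 13.6 and 16.3 CPM, against 38.7 and 41.0 CPM (-1.41 ± 0.12, adjusted p = 2.59e-08), with 4.02 and 2.91 CPM in vehicle cells. In the IL1 family, the cytokine IL18 fell (-0.61 ± 0.09) and the receptor IL1R1 rose to 214 and 214 CPM, against 165 and 169 CPM (0.36 ± 0.07). PTGS2, the inducible cyclooxygenase COX-2, rose to 64.6 and 68.7 CPM, against 45.1 and 46.6 CPM with IL1β alone (chr1:186671791-186680427, minus strand; 0.54 ± 0.10, adjusted p = 0.000345; corrected 0.77). Of 17 genes of prostaglandin synthesis and receptors 5 rose and 0 fell, among them PLA2G4A, which frees arachidonic acid (0.76 ± 0.12), and the prostaglandin E2 receptor PTGER4 (0.59 ± 0.10).

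Of 40 tested interferon-stimulated genes 24 rose, 0 fell and 16 were not called in both fits, with medians of 0.50 and 0.42 in the plain and corrected fits, beside 11.4% rising and 8.63% falling among all tested genes. OASL, an oligoadenylate synthetase-like antiviral protein, had 26.7 and 19.7 CPM with CDD-3013, against 9.12 and 8.48 CPM with IL1β alone and 1.94 and 2.66 CPM in vehicle cells (1.40 ± 0.16, adjusted p = 1.84e-06). IFITM1, a membrane protein that blocks virus entry, had 29.9 and 26.9 CPM against 10.9 and 13.3 CPM (1.24 ± 0.18). ISG15, a ubiquitin-like modifier, had 121 and 125 CPM against 55.5 and 62.4 CPM (1.06 ± 0.13; corrected 0.71). IFIT2 and IFIT3, which bind foreign RNA or its complexes, rose by 0.91 and 0.77. In these genes both CDD-3013 libraries lay above both IL1β libraries, as they did for 5325 (33.8%) of all tested genes, with 5345 (34.0%) lying wholly below. The transcription factor IRF1 rose to 50.3 and 50 CPM, against 33.9 and 39.3 CPM (0.46 ± 0.09). TNFSF10, the death ligand TRAIL, rose to 20.8 and 21.1 CPM, against 7.16 and 8.98 CPM (chr3:172505508-172523507, minus strand; 1.38 ± 0.15, adjusted p = 5.49e-07). Of 19 genes of the TNF superfamily 7 rose and 2 fell. Of 22 guanylate-binding proteins and antigen processing genes 12 rose and 0 fell, with medians of 0.40 and 0.24. The immunoproteasome subunits PSMB10, PSMB9 and PSMB8 rose by 1.05, 0.79 and 0.84. PSMB9 had 61.4 and 73.4 CPM against 39.6 and 38.4 CPM. HLA and GBP genes share sequence with close relatives, and their counts are uncertain to that extent.

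Promoters of IFIT3 (chr10:89327747-89328046, plus strand) and TNFSF10 (chr3:172523381-172523680, minus strand) are shown because both genes rose and hold the repeat of interferon-stimulated response elements, searched as TTCNNTTTC on both strands and set in capitals (RefSeq, GRCh38.p14, gene direction).
IFIT3: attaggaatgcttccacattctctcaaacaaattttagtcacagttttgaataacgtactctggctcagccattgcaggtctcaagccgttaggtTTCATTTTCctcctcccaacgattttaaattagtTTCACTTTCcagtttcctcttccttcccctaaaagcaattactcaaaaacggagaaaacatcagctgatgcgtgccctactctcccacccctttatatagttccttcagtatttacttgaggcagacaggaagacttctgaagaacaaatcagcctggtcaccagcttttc
TNFSF10: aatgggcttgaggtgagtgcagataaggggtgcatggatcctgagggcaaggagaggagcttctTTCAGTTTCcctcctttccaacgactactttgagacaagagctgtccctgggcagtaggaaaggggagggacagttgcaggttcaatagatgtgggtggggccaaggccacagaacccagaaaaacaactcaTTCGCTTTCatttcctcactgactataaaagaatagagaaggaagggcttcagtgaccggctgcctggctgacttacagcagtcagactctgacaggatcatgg
The copies begin 155 and 121 bases before the start in IFIT3 and 186 and 54 bases before it in TNFSF10. The motif was in 8.46% of promoters of genes that rose, 4.93% of those that fell and 6.43% of all promoters of tested genes.

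Acute-phase genes had the highest median of all lists with at least 5 tested members, 0.77 in the plain and 0.57 in the corrected fit. Of 17 tested, 13 rose and 0 fell, beside 11.4% and 8.63% of all tested genes. SAA1, serum amyloid A, had 229 and 226 CPM with CDD-3013, against 60.8 and 56.5 CPM with IL1β alone and 0.554 and 0.818 CPM in vehicle cells (chr11:18266174-18269977, plus strand; 1.95 ± 0.12, adjusted p = 4.62e-08; corrected 1.72). Its near-identical neighbour SAA2 had 80.6 and 86.2 CPM against 30.0 and 26.7 CPM (1.56 ± 0.09), and reads may be split between the pair. CHI3L1, a chitinase-like protein of inflamed tissue, had 24.1 and 24.7 CPM against 7.55 and 10.4 CPM (1.45 ± 0.14), and LCN2, lipocalin 2, had 30.2 and 23.2 CPM against 10.4 and 10.9 CPM (1.33 ± 0.14). The complement protein C3 had 1244 and 1133 CPM against 771 and 856 CPM (0.55 ± 0.08). C/EBP factors, which drive acute-phase genes in liver, were represented by 5 tested genes, of which CEBPD, CEBPB and DDIT3 rose and CEBPG fell, the last with a call that was lost without the first IL1β library (adjusted p = 0.0622) or the first CDD-3013 library (0.0954). CEBPD had 942 and 1058 CPM against 418 and 485 CPM (chr8:47736909-47739086, minus strand; 1.15 ± 0.11, adjusted p = 3.42e-06; corrected 0.87). SLPI, a secreted inhibitor of neutrophil elastase, had 214 and 247 CPM against 69.5 and 76.7 CPM (1.66 ± 0.16; corrected 1.41).

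The largest rise among genes with a symbol, at least 2 CPM in one group and no overlap of the libraries was that of TDO2, which begins the breakdown of tryptophan to kynurenine. It had 15.6 and 16.8 CPM with CDD-3013, against 2.07 and 2.70 CPM with IL1β alone and 0.138 and 0.153 CPM in vehicle cells (chr4:155854738-155920406, plus strand), a 6.81-fold rise (2.77 ± 0.19, adjusted p = 1e-09; corrected 2.94). IDO1, which catalyses the same step, had 2.02 and 1.39 CPM against 0.504 and 0.377 CPM (1.93 ± 0.49), a call lost without the first CDD-3013 library (adjusted p = 0.0519). They were the 2 of 9 tested genes of tryptophan breakdown and AHR targets that rose, and 0 fell. Among all tested genes the shares were 11.4% and 8.63%. Further genes among the 15 largest rises were G0S2, an inhibitor of triglyceride breakdown with 11.1 and 14.0 CPM against 3.86 and 2.89 CPM (1.88 ± 0.21), the haptoglobin gene HP (1.85 ± 0.40), the IL10-family cytokine IL20 (1.78 ± 0.37) and the erythroid factor NFE2 (1.72 ± 0.24). C2CD4A, a nuclear factor known from inflamed endothelial cells, had 16.9 and 14.5 CPM against 5.15 and 4.77 CPM (1.66 ± 0.15), and its relative C2CD4B rose by 1.66.

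ID1, ID2 and ID3, inhibitors of DNA binding by bHLH factors and classic targets of BMP signals, rose together. ID1 had 248 and 288 CPM with CDD-3013, against 88.0 and 97.5 CPM with IL1β alone and 97.0 and 101 CPM in vehicle cells (chr20:31605283-31606515, plus strand; 1.53 ± 0.09, adjusted p = 4.85e-10; corrected 1.15). For ID1 the 2 groups without an inhibitor lay close together and CDD-3013 above both. ID2 had 60.0 and 67.6 CPM against 24.1 and 32.7 CPM, with 57.2 and 67.8 CPM in vehicle cells (1.17 ± 0.15), so that CDD-3013 and vehicle overlapped. ID3 had 192 and 244 CPM against 88.8 and 102 CPM (1.19 ± 0.11). Of 14 genes in a list of BMP signalling and ID genes 6 rose and 1, the antagonist NOG, fell, beside 11.4% and 8.63% of all tested genes. The list includes ID genes, so its count is not separate from the values above. The call of NOG was lost without the second IL1β library (adjusted p = 0.0785) or the second CDD-3013 library (0.171). HAND2, a progesterone-regulated factor of endometrial stroma, had 50.4 and 49.0 CPM against 22.2 and 27.3 CPM, with 49.4 and 52.5 CPM in vehicle cells (1.01 ± 0.10, adjusted p = 1.67e-07). KDR, a VEGF receptor, had 25.4 and 23.0 CPM against 13.8 and 13.6 CPM and 33.2 and 35.6 CPM in vehicle cells (0.82 ± 0.11).

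Summed levels of cell type markers differed between these groups, while the members of a list did not all move in the same direction. Epithelial markers summed to 12320 to 13522 CPM with CDD-3013 and 9074 to 9192 CPM with IL1β alone, mostly KRT8, which rose by 0.56, and KRT18, which rose by 0.44; these genes overlap on opposite strands, and whether counting used strand is not given in the sources used here. PAX8, a transcription factor of Müllerian epithelium, fell to 7.55 and 7.40 CPM, against 16.3 and 13.6 CPM (-1.0 ± 0.16). Of 11 stromal markers 5 rose, among them DCN, decorin, with 421 and 471 CPM against 254 and 278 CPM (0.74 ± 0.09), and 2 fell, COL1A1 and VIM. Among all tested genes 11.4% rose and 8.63% fell. COL1A1 lost its call without the first IL1β library (adjusted p = 0.0503) or the second CDD-3013 library (0.114), and VIM without the second IL1β library (0.387) or either CDD-3013 library (0.184 and 0.111). Mesothelial markers summed to 1137 to 1155 and 970 to 974 CPM and endothelial markers to 32.5 to 35.5 and 23.1 to 23.9 CPM. Of 5 tested endothelial markers 1 rose and 0 fell, with medians of -0.29 and -0.25 in the plain and corrected fits. Of 7 tested mesothelial markers 1 rose and 1 fell (medians 0.35 and 0.11). Of 10 tested epithelial markers 2 rose and 2 fell (medians 0.19 and 0.03). The part of these markers in the other results was not tested, and in bulk libraries a change in the share of cells of a type and a change in RNA per cell cannot be told apart.

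**Figure D4:**
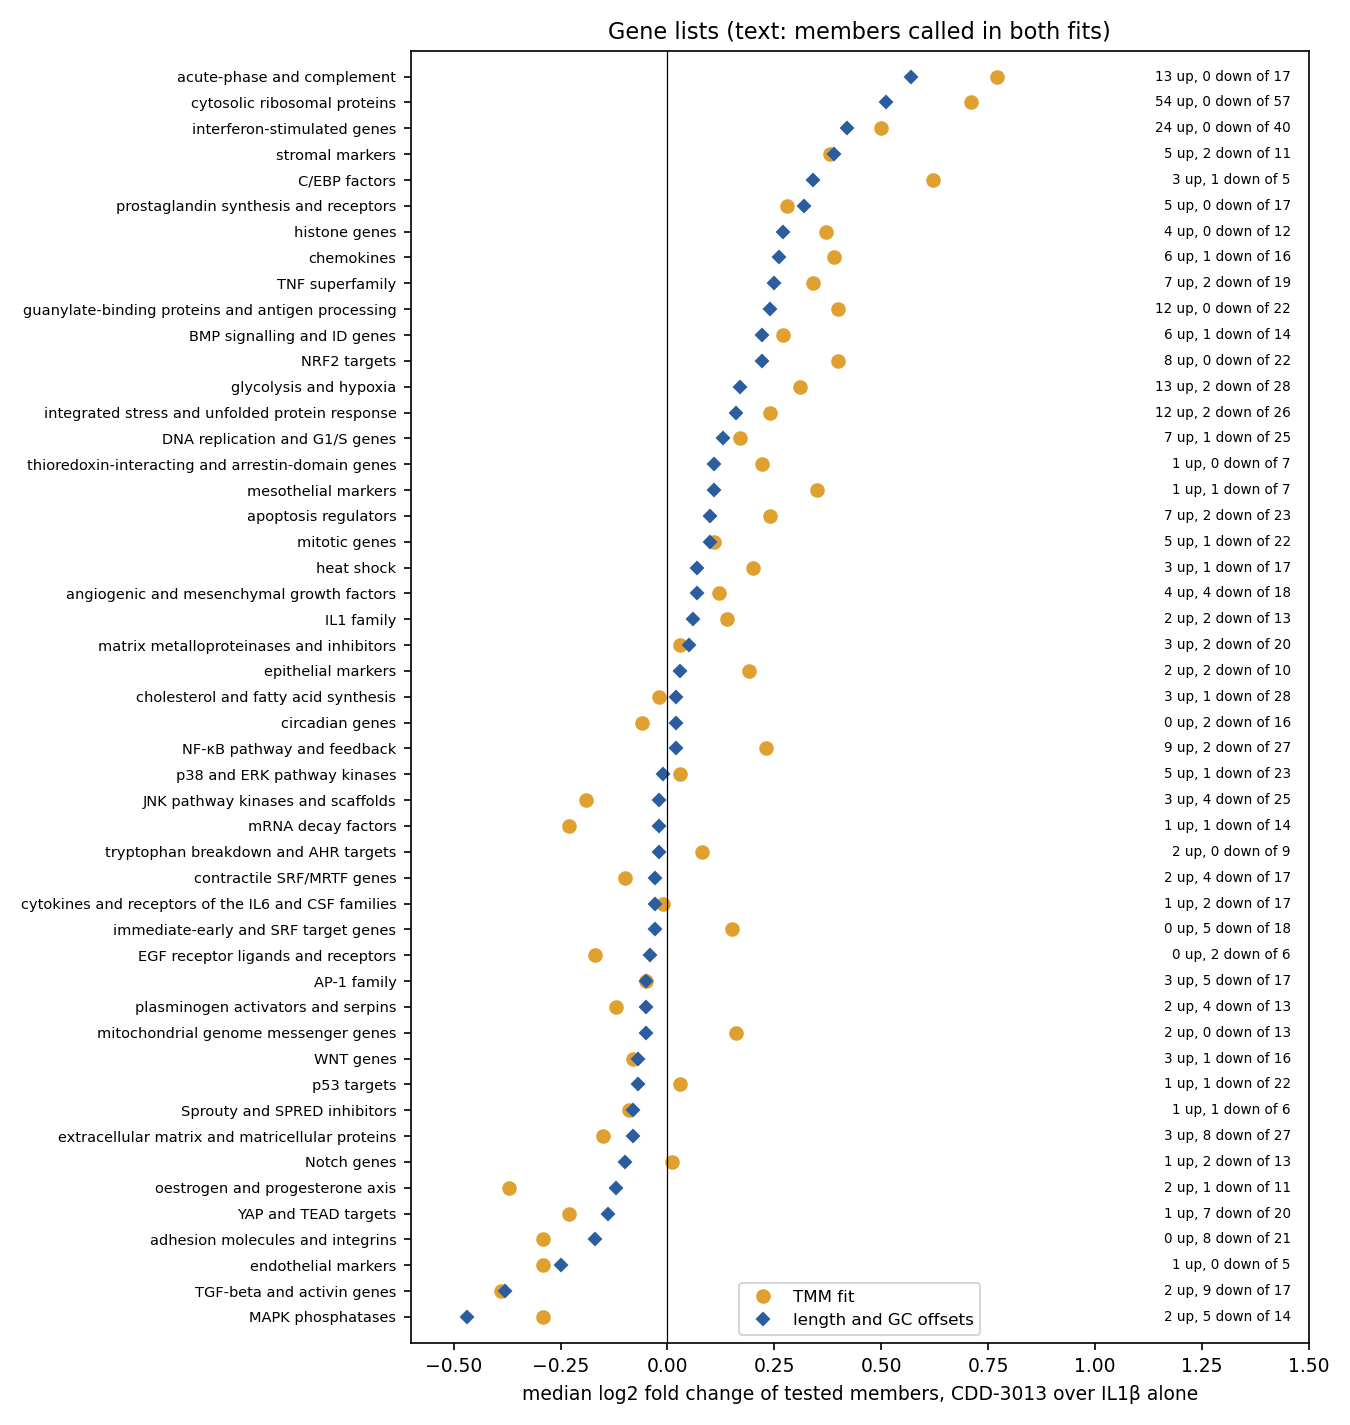
Median log2 fold change of CDD-3013 over IL1β alone for the tested members of each gene list with at least 5 tested members (x axis), in the plain fit (circles) and the corrected fit (diamonds); the text at the right counts members called in both fits. Acute-phase, ribosomal protein and interferon-stimulated genes lie at the upper end (corrected medians 0.57, 0.51 and 0.42), MAPK phosphatases and TGF-β genes at the lower end (-0.47 and -0.38).

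Metabolic and stress lists are given beside the 11.4% of all tested genes that rose and the 8.63% that fell. All 57 cytosolic ribosomal protein genes were called higher in the plain fit (median 0.71) and 54 of 57 in both fits (corrected median 0.51), and they took 3.97% and 4.69% of counts in the CDD-3013 libraries, against 2.78% and 2.85% with IL1β alone. Their transcripts are short, and many have processed pseudogenes that can take reads. Of 22 NRF2 targets, which protect against oxidants, 8 rose and 0 fell. HMOX1, haem oxygenase 1, had 24.1 and 29.3 CPM against 12.3 and 13.1 CPM (1.07 ± 0.12), and NQO1, a quinone reductase, 359 and 399 CPM against 242 and 257 CPM (0.60 ± 0.08). Of 28 genes of glycolysis and hypoxia 13 rose and 2 fell; among those that rose were the glucose transporter SLC2A3 (0.75 ± 0.08) and hexokinase HK2, with 222 and 222 CPM against 133 and 136 CPM (0.73 ± 0.07). Of 26 genes of the integrated stress and unfolded protein response 12 rose and 2 fell; CHAC1, which degrades glutathione, rose to 27.1 and 38.7 CPM, against 14.8 and 14.7 CPM (1.16 ± 0.14). The 15 higher calls of the plain fit in this list became 8 without the first IL1β library. Of 25 genes of DNA replication and G1/S 7 rose and CDK6 fell. Their 11 higher calls in the plain fit became 6 without the second CDD-3013 library and 7 without either IL1β library. Of 23 apoptosis regulators 7 rose and 2 fell.

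Of 22 p53 targets the plain fit called 6 higher and 5 lower, and 1 rose and 1 fell. Without the second library of either group 3 were called in each direction. Of 14 mRNA decay factors it called 3 higher and 7 lower, and 1 rose and 1 fell, with medians of -0.23 and -0.02. The 3 higher calls became 1 without the first library of either group. Of 20 YAP and TEAD targets 7 fell and 1 rose (8.63% and 11.4% of all tested genes), and the 11 lower calls of the plain fit became 6 or 7 without any 1 of the 4 libraries. ANKRD1, a mechanically regulated gene of this list, had 5.59 and 5.38 CPM against 10.1 and 9.61 CPM (-0.85 ± 0.16). Of 28 genes of cholesterol and fatty acid synthesis 3 rose and 1 fell, of 16 WNT genes 3 rose and 1 fell, of 16 circadian genes 0 rose and 2 fell, and of 13 messenger genes of the mitochondrial genome 2 rose and 0 fell.

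The correction also turned the direction of some calls. A total of 27 genes (0.172% of those tested) were called in opposite directions by the 2 fits. SMAD2, a transducer of TGF-β signals, averaged 75.0 CPM with CDD-3013 and 87.6 CPM with IL1β alone, and was called lower in the plain fit (-0.22 ± 0.08) and higher in the corrected fit (0.43 ± 0.08). The sheddase ADAM10, at 161 and 191 CPM, had -0.25 and 0.21, and the small GTPase RAP1B, at 193 and 223 CPM, had -0.21 and 0.29. The spermidine synthase SRM, at 259 and 223 CPM, went the other way, with 0.21 and -0.18. For these genes the direction depends on the correction, and they were chosen after their values were seen. Their plain calls were also lost in 2 (ADAM10) to 4 (SMAD2) of the 4 fits that left out a library.

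CDD-3013 was set against CDD-2728 at the matched dose of 1 µM, the only pair of compounds compared here. The plain fit called 2811 genes (17.9%), 1550 higher (9.85%) and 1261 lower (8.01%) with CDD-3013. The corrected fit called 669 (4.25%), 512 higher (3.25%) and 157 lower (0.997%), and both fits called 307 higher (1.95%) and 129 lower (0.82%) in the same direction. Without the second CDD-2728 library the corrected fit called 7 higher and 9 lower, and without the second CDD-3013 library 54 and 32, so that these counts rest on single libraries. Without the first of either group the corrected fit called 1063 and 333 (CDD-2728) or 740 and 136 (CDD-3013). HBEGF was lower with CDD-3013 than with CDD-2728, at 31.6 and 32.7 CPM against 48.8 and 50.6 CPM (log2 difference -0.63, adjusted p = 0.000406; corrected -0.73, with a 95% interval of -0.87 to -0.58). DUSP8 was lower, at 10.8 and 10.1 CPM against 15.9 and 19.3 CPM (corrected -0.87, -1.10 to -0.64). JUN was lower, at 127 and 129 CPM against 165 and 169 CPM (corrected -0.49, -0.60 to -0.38), and so were FILIP1L (-0.48, -0.60 to -0.36), TNC (-0.40, -0.54 to -0.26) and NFAT5, a factor of osmotic stress (-0.47, -0.60 to -0.33). SAA1 was higher with CDD-3013, at 229 and 226 CPM against 175 and 125 CPM (corrected 0.44, 0.25 to 0.63), as were ID1 (0.34, 0.22 to 0.46) and PSMB9 (0.54, 0.31 to 0.77). Among the largest differences in the other direction from DUSP8, CDC42EP5, an effector of the GTPase CDC42, had 9.98 and 9.30 CPM against 5.52 and 3.40 CPM (1.10 in the plain and 0.75 in the corrected fit). The plain call of PSMB9 was lost without the second CDD-3013 library (adjusted p = 0.0659) or the second CDD-2728 library (0.0819). No difference was called in both fits for CXCL8 (corrected -0.17, -0.36 to 0.02), CXCL10 (0.11, -0.18 to 0.41), SAA2 (0.04, -0.11 to 0.18), PDGFB (-0.23, -0.45 to -0.01), CREB5 (-0.53, -1.09 to 0.04) or ATF3 (-0.21, -0.43 to 0.00). Of these, CREB5 was called lower in the plain fit without the first CDD-2728 library (-1.20, adjusted p = 0.00375) and CXCL8 without the second CDD-3013 library (-0.46, adjusted p = 0.0167). Of 40 interferon-stimulated genes the plain fit called 8 higher and 1 lower between the compounds and the corrected fit 1 higher and 0 lower. Of 17 acute-phase genes the plain fit called 4 higher and the corrected fit 2 higher, with 0 lower in either. Of 57 ribosomal protein genes the plain fit called 46 higher and the corrected fit 19 higher, with 0 lower in either, beside 9.85% and 3.25% called higher among all tested genes.

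**Figure D5:**
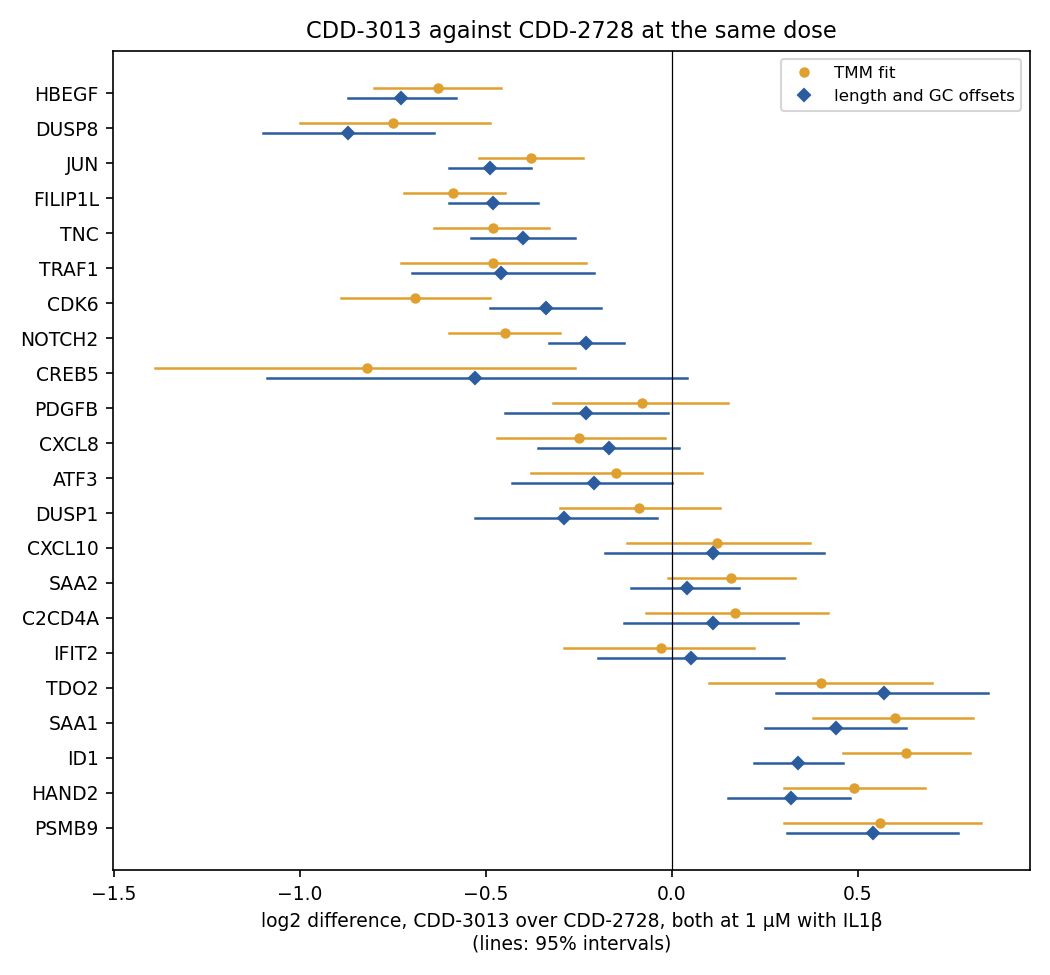
Log2 difference of CDD-3013 over CDD-2728, both at 1 µM with IL1β (x axis), for 22 genes (y axis) in the plain fit (circles) and the corrected fit (diamonds), with lines for 95% intervals. HBEGF, DUSP8, JUN, FILIP1L and TNC lie left of 0, ID1, SAA1 and PSMB9 right of it, and the intervals of SAA2, CXCL10 and IFIT2 span 0.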

How the data were processed

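Poly(A) RNA of 12Z cells was sequenced from 10 libraries in 5 groups of 2. Per the submitters' processing notes the authors used fastp, STAR and featureCounts with the build hg38 (their versions, strand setting and annotation: not given in the sources used here). Deposited were whole-number counts for 62750 Ensembl gene IDs, not normalized by the authors. Of these, 61918 matched a reference of gene names with their version and 754 without. GENCODE 29 (GRCh38), the source of the given gene coordinates, held 58323 of the IDs.

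Genes were kept by edgeR's filterByExpr (minimum count 10), leaving 15740. TMM-scaled counts of all 10 libraries went into 1 quasi-likelihood fit by group (edgeR 4.0.16, limma 3.58.1, R 4.3.3; robust, common BCV 0.0604), with Benjamini-Hochberg adjustment over all tested genes and a threshold of 0.05. SE is the log2 fold change divided by the root of F. The corrected fit added offsets from each library's loess trends (span 0.3, 2 rounds) over the log length and GC content of the longest transcript, known for 97.3% of tested genes, fitted where the mean reached 1 CPM. The procedure was also run on simulated data with the same spread for all genes, without a trend or with a linear length trend. No GC trend was simulated, and the outcome is not given here. All values of a compound against IL1β or vehicle share the IL1β or vehicle libraries.

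Replicates correlated at 0.9901 to 0.9925 and differed by more than counting noise (chi-square per degree of freedom 2.58 to 7.76). Each was counted as 1 sample, though such a spread may be technical only. Named are the 15 largest changes per direction called in both fits with at least 2 CPM in one group and no overlap of libraries, up to 3 members of each of 50 lists with the smallest adjusted p, 8 per direction between the compounds, and a set of IL1β and AP-1 genes; further list members appear where a count is broken down. Members and lists were chosen with earlier results of these data known. The 10 µM dose of CDD-2728 entered the fit and is not described here. Alternatives were RLE size factors, library totals, other filters, DESeq2 1.42.0, the replicate block, 4 libraries only, and leaving out each library; offsets for length or GC alone and leaving out libraries in the corrected fit were added after seeing the data. Promoters were found for 11220 tested genes in the RefSeq table, with 1 window kept per gene.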

Additional observations from a re-analysis of the deposited data

How the results depend on the processing

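Against IL1β alone, of 135 genes whose values are given above, 105 kept the plain fit's direction and side of the threshold under the settings compared by gene. Corrected fits that left out a library were not compared by gene. With the filter of at least 5 CPM in 2 libraries, 125 of the 135 genes were tested. The counts of 2994 higher and 2729 lower genes were 3043 and 2678 with RLE size factors, 2285 and 3548 with library totals, 2674 and 2219 with DESeq2. Lower genes numbered 1700 with offsets for length and GC content and 1648 with these and the replicate block. Leaving out 1 library gave 2077 to 2730 higher and 1603 to 2071 lower genes in the plain fit, and 1515 to 2294 and 857 to 1166 in the corrected fit, where lower genes numbered 1076 without the second IL1β library and 997 without the second CDD-3013 library. Between the compounds, 1550 higher and 1261 lower genes became 512 and 157 with the offsets, 433 and 129 with offsets and replicate block, 386 and 537 with GC offsets only, 945 higher genes with only the 4 libraries compared, 613 lower genes with length offsets only and 1965 lower genes with library totals. Leaving out 1 library gave 318 to 1882 higher and 338 to 1425 lower genes, and in the corrected fit 7 to 1063 and 9 to 333, with 54 and 32 without the second CDD-3013 library. The cause of these shifts was not tested. The labels do not state whether replicate numbers pair the samples. Replicate deviations had a correlation of 0.0036 between CDD-3013 and IL1β libraries, a value that cannot decide whether samples were handled in pairs. With the replicate block alone 2906 higher and 2621 lower genes were called against IL1β alone and 1420 and 1174 between the compounds.

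Direction reversed against IL1β alone with both offsets, with both and the block, and with length offsets only for SMAD2 (0.43, 0.43 and 0.37), ADAM10 (0.21, 0.21 and 0.12), RAP1B (0.29, 0.29 and 0.19), SRM (-0.18, -0.19 and -0.10) and NFKBIA (-0.07, -0.07 and -0.05). MAPK10 had -0.28 without the second and 0.97 without the first IL1β library. Between the compounds CXCL10 had -0.16 without the first and 0.36 without the second CDD-3013 library and -0.09 with length offsets only, SAA2 -0.06 with length offsets only and CXCL8 0.00 with GC offsets only. The 2 libraries per group and an unknown source of the length and GC trends limit every count, and changes of genes near 1 CPM rest on few reads.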

Other observations

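Some genes outside the lists also changed in both fits, and they were chosen after their values were seen. SOCS3, the feedback inhibitor of JAK and STAT signalling, rose to a mean of 284 CPM with CDD-3013, against 120 CPM with IL1β alone (edgeR log2 fold change 1.24 ± 0.07, adjusted p = 2.96e-11; corrected 1.04). STEAP4, a metalloreductase of inflamed tissue, averaged 62.3 and 24.9 CPM (1.33; corrected 1.75). HSD3B1, which makes progesterone and other steroids, averaged 19.5 and 7.28 CPM (1.42; corrected 1.22). The transcription factor OSR1 averaged 209 and 95.3 CPM (1.13), the growth arrest gene GAS1 389 and 181 CPM (1.10), and GJA1, the gap junction protein connexin 43, 214 and 116 CPM (0.89). IGFBP3, which binds IGFs, averaged 238 and 125 CPM (0.93).

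Among genes that fell, RUNX2, a transcription factor of bone, averaged 11.1 CPM with CDD-3013 and 27.9 CPM with IL1β alone (-1.32; corrected -1.14). NPPB, the B-type natriuretic peptide, averaged 39.2 and 85.7 CPM (-1.13; corrected -1.46). The actin-binding protein PALLD averaged 131 and 273 CPM (-1.05; corrected -0.86). AHNAK, whose transcript is very long, averaged 967 and 2323 CPM, and its log2 fold change was -1.26 in the plain and -0.83 in the corrected fit. MAP1B, which binds microtubules, averaged 191 and 448 CPM (-1.23; corrected -0.85). How these genes behave when a library is left out was not examined.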
